A study of Arabidopsis thaliana with 6 samples.

Results

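The 10 genes described here belong to the pectin methylesterase inhibitor family of Arabidopsis thaliana, and they are 10 of the 32833 loci in each count table. PMEI1 to PMEI7 were chosen by name, and the other 3 loci, AT5G62360, AT1G62770 and AT5G62350, were selected on annotation with differences measured between these same libraries in view. The group differences of the members are therefore given as a description and support nothing by themselves. RefSeq's annotation of build TAIR10.1 places all 10 in the family: it describes PMEI1 and PMEI2 as inhibitors and the other 8 as members of the plant invertase and pectin methylesterase inhibitor superfamily. No activity of any of these proteins was measured here.

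RNA was sequenced from inflorescence meristems, the stem cell domes from which flowers arise. They were dissected from 15 cm tall stems after removal of all but the youngest flower primordia. All plants carried a system in which the promoter of the stem cell gene CLV3 drives GR-LhG4, a transcription factor that dexamethasone switches on. In the control genotype, pCLV3>>erTurquoise, it switches on only a fluorescent reporter, and in the second genotype, pCLV3>>erTurquoise, >>VGD1, also the pectin methylesterase VGD1. Each group had 3 poly(A)-selected libraries, and shoot apices of both were sprayed with dexamethasone. Induction before harvest is given as 72 hours in one label and 48 hours in another, and the dexamethasone as 30 µM or 30 mM. The labels do not say whether libraries of a group came from separate plant batches, so a p-value here covers variation among the sequenced libraries, which may be technical.

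Libraries held between 6638772 counts (control replicate 3) and 24437872 counts. Among counts from 1 to 20, between 77.0% and 80.9% were even numbers, the pattern left when both mates of a read pair are counted. Counting error of low genes is then larger than the printed counts imply. VGD1 itself was not higher in its own group, at 9.63 ± 4.24 CPM (counts scaled to library size, SD, n = 3) in controls and 7.21 ± 0.666 CPM in the second group. These are therefore referred to as the libraries labelled VGD1, and each direction below holds for the groups as labelled. It would turn if the labels were exchanged, which was not tested. Whether the counts include the VGD1 transcript of the construct was not tested either. Of the meristem markers, STM and WUS were present in every library, and CLV3 was at 0 in the controls and at 0.386 ± 0.223 CPM in the libraries labelled VGD1.

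Pectin methylesterases remove methyl groups from homogalacturonan, the main pectin of the primary cell wall, after it has been secreted. Inhibitors of this family bind the enzymes in the wall and block them, so that the balance of both sets the charge and stiffness of the wall. In the shoot meristem this balance is known to bear on where organs form: overproduction of PMEI3 there blocks the outgrowth of primordia. The family also holds inhibitors of invertases, which act on sucrose rather than pectin.

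The members are small and diverged proteins of 173 (PMEI2) to 239 residues (PMEI3). Over the 45 pairs of members, protein identity ran from 14.6% to 46.3% with a median of 24.4%. The closest pair was PMEI7 with AT5G62350 (46.3%), followed by PMEI1 with PMEI2 (44.4%) and AT5G62360 with AT5G62350 (43.4%). None of the 50-base windows of any member's exons stands elsewhere in the nuclear chromosomes, for example 0 of 916 windows of AT5G62360 and 0 of 1185 of AT5G62350. Reads of that length with no mismatch would thus not have been shared between copies. PMEI7 overlaps AT4G25270 on the same strand by annotation, and reads in that overlap cannot be assigned from the tables.

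Many members lie beside relatives. AT5G62350 and AT5G62360 stand on the same strand with 2115 bases between them, and another family locus, AT5G62340, lies 2786 bases from AT5G62350. PMEI4 and PMEI7 are neighbours on opposite strands, 239 bases apart. PMEI5 lies between AT2G31425 and AT2G31432, PMEI2 beside AT3G17225, and PMEI1 and AT1G62770 each have a family locus as the next coding gene. Of these neighbours AT5G62340 had 0 to 0.266 CPM, AT1G62760 0 to 0.599 CPM, and AT2G31425, AT2G31432 and AT1G48010 had no count in any library.

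The 250 bases before the annotated start are shown for the 4 members on which the results turn: the neighbours AT5G62360 and AT5G62350, the low gene AT1G62770, and PMEI3, the most abundant member. Capitals mark matches, on either strand, to the E-box CANNTG, the TCP site GGNCCC or the brassinosteroid response element CGTGTG. All are given 5′ to 3′ on the gene's strand, from TAIR10.1.

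AT5G62360, chr5:25040290-25040539, plus strand: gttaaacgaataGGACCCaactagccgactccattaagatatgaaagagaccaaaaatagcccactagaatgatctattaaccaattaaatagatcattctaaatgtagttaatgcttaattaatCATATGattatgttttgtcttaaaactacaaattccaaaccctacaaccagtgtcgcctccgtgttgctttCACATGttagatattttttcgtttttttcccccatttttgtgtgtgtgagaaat

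AT5G62350, chr5:25036941-25037190, plus strand: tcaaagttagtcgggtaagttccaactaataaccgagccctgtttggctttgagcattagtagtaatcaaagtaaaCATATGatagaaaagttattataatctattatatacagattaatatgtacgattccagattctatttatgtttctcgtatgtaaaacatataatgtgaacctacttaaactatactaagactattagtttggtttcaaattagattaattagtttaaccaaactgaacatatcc

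AT1G62770, chr1:23246950-23247199, minus strand: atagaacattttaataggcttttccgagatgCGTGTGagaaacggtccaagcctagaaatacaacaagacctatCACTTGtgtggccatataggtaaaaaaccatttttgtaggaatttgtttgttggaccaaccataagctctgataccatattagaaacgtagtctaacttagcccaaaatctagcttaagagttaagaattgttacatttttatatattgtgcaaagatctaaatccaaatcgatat

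PMEI3, chr5:7026754-7027003, minus strand: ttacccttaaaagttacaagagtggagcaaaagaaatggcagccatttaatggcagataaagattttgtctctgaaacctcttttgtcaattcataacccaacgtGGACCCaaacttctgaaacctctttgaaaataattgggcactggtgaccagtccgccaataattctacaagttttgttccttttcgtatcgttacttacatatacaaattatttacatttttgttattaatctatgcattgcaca

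Motifs were counted in windows of 300 bases, from 250 before to 50 after the start, over 27444 coding genes. The E-box CANNTG was in 7 of 10 members and in 61.7% of all windows. AT5G62360 and PMEI3 were the members with a GGNCCC site, which 8.68% of all windows hold. AT1G62770 was the member with CGTGTG, which 6.52% of windows hold. The W-box (TTGACC or TTGACT) was in 3 members and 32.4% of windows, and the G-box CACGTG was in no member and in 7.68% of windows.

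Levels spanned a wide range, and a pair of genes carried most of the family's RNA in these libraries. Per kilobase of exon, PMEI3 was highest at 216 ± 16.1 CPM (SD over 6 libraries), and AT5G62350 followed at 169 ± 20.3 CPM. AT5G62360 stood at 29.6 ± 11.5 CPM per kilobase and PMEI7 at 4.69 ± 0.995 CPM per kilobase. These 4 genes were separated from each other and from the rest by ranges that did not overlap in the 6 libraries. Per kilobase of coding sequence instead, PMEI3 (356 CPM) and AT5G62350 (342 CPM) were no longer separated by their ranges.

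PMEI1 and PMEI2, inhibitors known from pollen, PMEI6, known from seed coat mucilage, and AT1G62770 stood at 0.759, 0.657, 0.373 and 0.688 CPM per kilobase. Their ranges overlapped, so no order is given among them. PMEI5, whose overproduction alters growth through brassinosteroid signalling, had 2 counts in 1 library, and PMEI4, known from the growing hypocotyl, had no count in any library. Where no count was seen, a level of up to 3 counts cannot be told from 0, or 0.124 to 0.450 CPM by library from counting error alone. If both mates of a pair were counted, as the even counts look, this limit is higher.

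**Figure D1:**
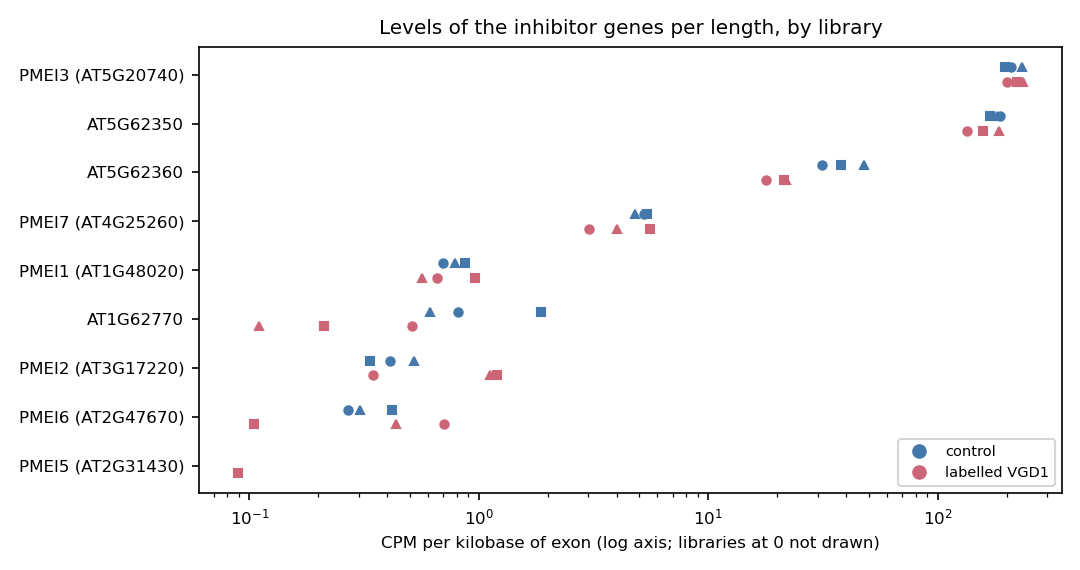
Level of 9 inhibitor genes in CPM per kilobase of exon on a log axis, 1 point per library, control in blue and labelled VGD1 in red, with marker shapes for replicates 1 (circle), 2 (square) and 3 (triangle). PMEI3 and AT5G62350 lie above 100 CPM per kilobase in all 6 libraries, and 5 genes stay under 2 CPM per kilobase.

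As shares of the summed length-scaled RNA of the 79 family loci, PMEI3 took 31.2% ± 1.96 (SD, n = 3) in controls and 34.3% ± 0.907 in the libraries labelled VGD1. AT5G62350 took 26.2% ± 0.669 and 24.8% ± 2.44. AT5G62360 took 5.71% ± 1.17 and 3.19% ± 0.0938. All 10 members together made up 64.3% ± 2.64 of the family's RNA in controls and 63.3% ± 3.09 in the libraries labelled VGD1.

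PMEI3 had near-equal levels in both groups. It gave 249, 234 and 276 CPM in control replicates 1 to 3 and 238, 263 and 279 CPM in the libraries labelled VGD1. Those ranges overlap almost entirely. On the log2 scale the difference was 0.04 (SE 0.10, 95% interval -0.23 to 0.32).

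AT5G62350, the abundant neighbour, gave 231, 208 and 223 CPM in controls against 165, 195 and 227 CPM in the libraries labelled VGD1. Replicates 1 and 2 labelled VGD1 lay below every control, and replicate 3 lay within the control range. On the log2 scale the difference was -0.17 (SE 0.12, 95% interval -0.50 to 0.15).

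AT5G62360 was lower in every library labelled VGD1 than in any control. Control libraries gave 30.2, 36.4 and 45.9 CPM, and the libraries labelled VGD1 gave 17.3, 20.6 and 21.0 CPM. The controls spread more (coefficient of variation 21.0%) than the libraries labelled VGD1 (10.5%), and the median over all tested genes was 11.2% and 11.6%. The level was 1.86-fold lower, a log2 difference of -0.90 (SE 0.16, 95% interval -1.33 to -0.46).

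Ratios taken within each library restate the difference of AT5G62360 and are no further support for it. Per kilobase, the ratio of AT5G62360 to AT5G62350 was 0.167, 0.224 and 0.264 in controls and 0.134, 0.135 and 0.118 in the libraries labelled VGD1. Against PMEI3 the ratio of AT5G62360 was 0.182 ± 0.029 (SD, n = 3) and 0.0930 ± 0.00369. Neither pair of ranges overlaps, as was already so for the levels of AT5G62360 alone.

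AT1G62770 was a low gene with a wide spread. Its raw counts were 18, 44 and 4 in the controls and 10, 4 and 2 in the libraries labelled VGD1. As levels these are 0.798, 1.82 and 0.600 CPM against 0.500, 0.208 and 0.108 CPM. The groups do not overlap, but the closest values, 0.600 and 0.500 CPM, rest on 4 and 10 counts. It passed the filter on low counts through the controls, so the filter itself favoured a negative difference, here -2.12 on the log2 scale (SE 0.65). It moved to -1.42 without control replicate 2 and to -2.89 without replicate 1 labelled VGD1.

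PMEI7, which can inhibit the enzyme PME3, gave 8.02, 8.28 and 7.35 CPM in controls against 4.60, 8.54 and 6.14 CPM in the libraries labelled VGD1. Replicate 2 labelled VGD1 was the highest of all 6 libraries and replicate 1 the lowest, so the groups overlap (log2 fold change -0.32, SE 0.23). PMEI1 gave 0.532, 0.663 and 0.600 CPM against 0.500, 0.729 and 0.431 CPM, with overlapping groups (log2 fold change -0.11, SE 0.48).

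PMEI2 and PMEI6 fell under the filter and have no fitted difference. PMEI2 had 8, 7 and 3 counts in controls and 6, 20 and 18 in the libraries labelled VGD1. In CPM, replicates 2 and 3 labelled VGD1 (1.04 and 0.970) were above all controls (0.290 to 0.450), and replicate 1 (0.300) was within them. PMEI6 had 6, 10 and 2 counts in controls and 14, 2 and 8 in the libraries labelled VGD1. The summed level of 10 mature pollen markers stayed between 44.5 and 49.4 CPM in all 6 libraries. Of the 10 markers, 5 passed the filter, and VEX1, ANX2, MGH3 and GEX2 were under 1 CPM in every library, with GEX2 at 0. The sum therefore rests on the other markers, and the part of pollen in the level of PMEI2 was not tested.

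**Figure D2:**
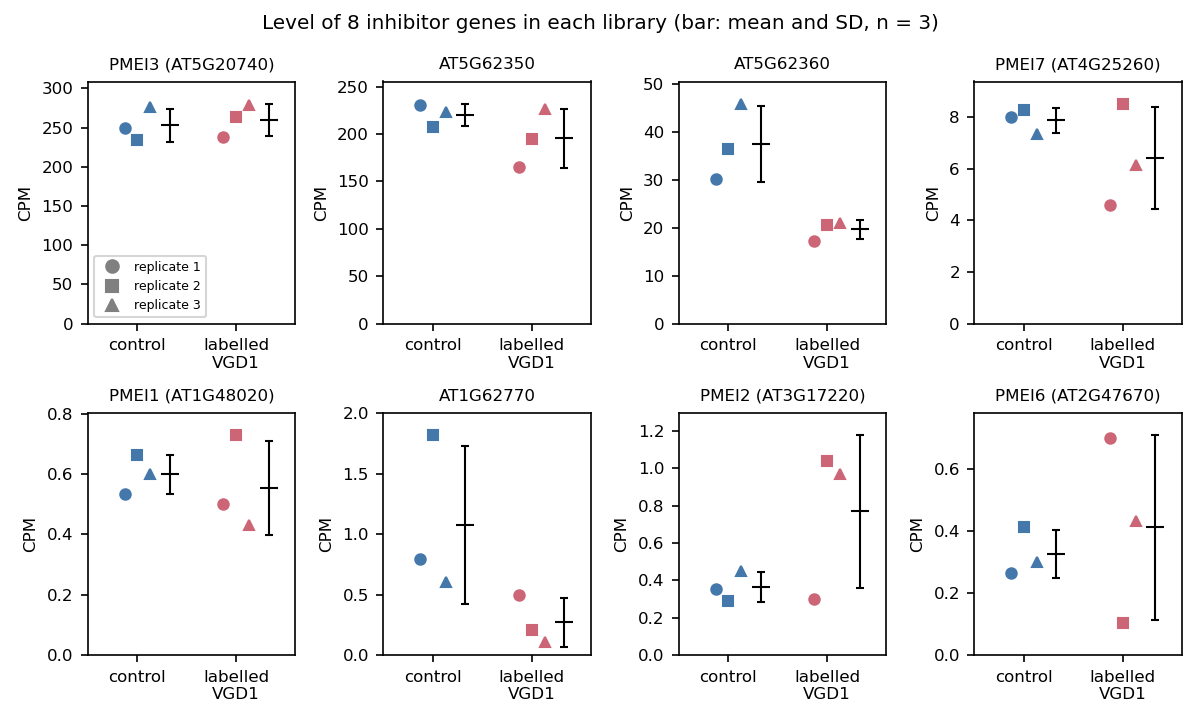
CPM of 8 inhibitor genes in each of 3 control (blue) and 3 libraries labelled VGD1 (red), each panel on its own linear axis from 0, with black bars for mean and SD. The groups separate for AT5G62360 and, at low counts, for AT1G62770, and overlap for the other 6.

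Of the 10 members, 6 passed the filter on low counts. In the edgeR quasi-likelihood fit over 19719 genes, 1 of the 6, AT5G62360, passed an adjusted p of 0.05, at 0.0484 and lower. Over all tested genes 0.416% passed in either direction and 0.314% passed as lower. Groups did not overlap, and were lower, for 2 of the 6 members and for 9.02% of all tested genes, or 17.2% in either direction. Since this contrast helped choose the members, nothing is read from these counts. The 6 fold changes had a median log2 of -0.25, where all tested genes had a median of 0.00. AT5G62360 kept its negative sign in all 15 alternative fits. These fits reuse the same libraries, in which its groups do not overlap, so the sign could hardly have turned and is no support. AT5G62360 passed the threshold in 6 of the 15. Without control replicate 2 its adjusted p was 0.262 at a log2 fold change of -0.90, and it passed in 1 of the 6 fits that left out a library, that without control replicate 3 (adjusted p = 0.0474).

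Summed marker levels of other tissues differed between the groups to varying degrees, and no single marker was called. Of 11 tested vascular markers all 11 had negative fold changes, and their summed level ran from 301 to 389 CPM in controls against 206 to 294 CPM in the libraries labelled VGD1, with SND1 at 0. Tapetum and anther markers (13 tested, 12 negative) ran from 1236 to 1443 CPM against 411 to 1227 CPM. Green tissue markers (11 tested, all negative) ran from 16704 to 22467 CPM against 14819 to 17619 CPM. Shoot meristem markers ran from 1219 to 1512 CPM against 1572 to 1651 CPM, and 4 of 6 tested were positive. Control replicate 3, with the highest AT5G62360, had the lowest vascular, green tissue and tapetum sums of the controls. It also had their highest meristem sum (1512 CPM) and the fewest counts of all libraries. The green tissue ranges overlap between the groups, and the vascular, tapetum and meristem ranges do not. The gaps are narrow for vascular (301 and 294 CPM) and tapetum markers. For tapetum, replicate 1 labelled VGD1 (1227 CPM) was near control replicate 3 (1236 CPM), and replicates 2 and 3 labelled VGD1 gave 411 and 632 CPM. The part of these tissues in the members' levels was not tested. In bulk samples, fewer cells of a type and less RNA per cell cannot be told apart.

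Among the members that were tested, levels did not follow a common pattern over the 6 libraries. Pearson's r of log2(CPM + 1) was 0.60 between AT5G62360 and AT5G62350, 0.60 between AT5G62360 and AT1G62770, and 0.09 between AT5G62360 and PMEI3. AT5G62350 and PMEI7, the closest proteins, had an r of 0.59, and PMEI3 and AT1G62770 had -0.72. These are descriptions over 6 libraries that share the group difference and the depth of each library.

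The rest of the inhibitor family, taken by annotation words and a protein under 300 residues, held 69 more loci, of which 24 had no count in any library and 20 were tested. None was called (lowest edgeR adjusted p = 0.119), and DESeq2 and limma-voom also called 0. With 0.416% of all tested genes called by edgeR, 0 of 20 says little about these loci. At an unadjusted p under 0.05, 5 of the 20 were lower and 0 higher, beside 8.36% lower and 5.21% higher over all 19719 tested genes. Of the 20, 16 had negative and 4 positive fold changes, with a median log2 of -0.34. Over all tested genes 9885 were negative and 9834 positive, with a median of 0.00. The 20 loci include low genes that passed the filter through the controls.

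Of these loci AT2G01610 and AT1G14890 were the most abundant per length, at 67.2 ± 10.4 and 62.7 ± 12.6 CPM per kilobase (SD over 6 libraries), above AT5G62360 and below AT5G62350. AT1G14890 gave 63.1 ± 8.73 CPM in controls against 76.0 ± 17.0 CPM in the libraries labelled VGD1 (edgeR adjusted p = 0.560). AT1G23205, C/VIF2 and AT3G62820 came next at 31.3, 31.2 and 6.70 CPM per kilobase. C/VIF2, an invertase inhibitor, was level at 34.9 ± 4.11 and 33.5 ± 0.613 CPM. AT5G50060, with the smallest p, gave 1.24, 1.99 and 0.600 CPM in controls against 0.400, 0.104 and 0.323 CPM in the libraries labelled VGD1. These rest on 28, 48 and 4 counts against 8, 2 and 6. This locus passed the filter on low counts through the controls, so the filter itself favoured a negative difference. AT3G62820 gave 9.57 ± 1.80 and 6.44 ± 0.527 CPM (edgeR adjusted p = 0.179). AT3G17225, beside PMEI2, gave 1.74 ± 0.326 and 1.97 ± 0.357 CPM.

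Loci named as pectin methylesterases showed no called change in the edgeR fit. Which of them the inhibitor proteins can block was not measured. Over all 19719 tested genes edgeR called 0.416%, DESeq2 430 genes and limma-voom 69. A count of 0 in a list this short therefore says little about these loci. Of 56 loci with the words of a pectin methylesterase, or named as such by hand, 31 were tested and 0 were called by edgeR, 0 by limma-voom and 1 by DESeq2. That 1, AT1G02813, carries the enzyme's name beside a domain of unknown function and gave 41.7 ± 15.7 CPM in controls against 18.3 ± 5.30 CPM in the libraries labelled VGD1 (edgeR adjusted p = 0.193). At an unadjusted p under 0.05, 4 of the 31 were lower and 0 higher, beside the 8.36% and 5.21% of all tested genes. Of the 31, 20 fold changes were negative and 11 positive, with a median log2 of -0.14. Left without loci of unknown function and a long inhibitor-family locus, the list held 50 loci, with 27 tested and 0 called by any of the 3 tools.

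PME5, an enzyme known from the meristem, was the most abundant at 155 ± 6.29 CPM per kilobase, close to AT5G62350. It gave 222 ± 4.18 CPM in controls against 228 ± 12.7 CPM in the libraries labelled VGD1 (edgeR adjusted p = 0.885). PME1, AT1G02813, PME3 and AT3G49220 followed at 63.6, 46.0, 40.6 and 40.3 CPM per kilobase. PME3 gave 107, 111 and 103 CPM in controls against 70.7, 77.3 and 95.8 CPM in the libraries labelled VGD1. Its groups did not overlap, and it had the smallest p of the 31 loci without passing the test (log2 fold change -0.40, SE 0.11, edgeR adjusted p = 0.181).

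Among 9 genes of homogalacturonan synthesis and methylation all were tested and 0 were called by edgeR, DESeq2 or limma-voom. With 0.416% of all tested genes called by edgeR, 0 of 9 says little about these genes. At an unadjusted p under 0.05, 1 of 9 was higher, beside 5.21% of all tested genes. That 1, QUA1, a galacturonosyltransferase-like protein, gave 121, 127 and 124 CPM in controls against 131, 148 and 157 CPM in the libraries labelled VGD1 (edgeR adjusted p = 0.306).

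**Figure D3:**
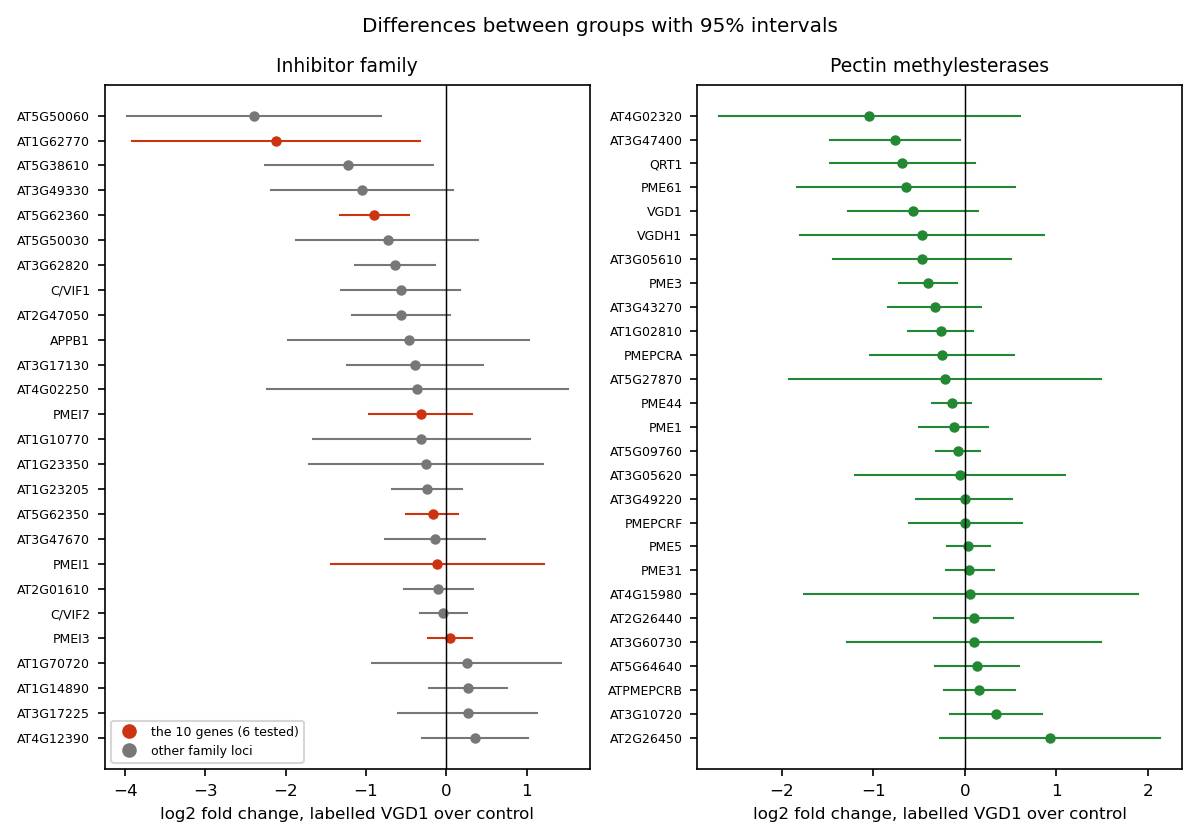
Log2 fold change of the libraries labelled VGD1 over controls, with 95% intervals from the edgeR fit, for 26 tested loci of the inhibitor family (red for the genes described here, grey for the others) and 27 tested pectin methylesterases (green). Points left of 0 are lower in the libraries labelled VGD1, and intervals of low genes are wide.

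Summed over the family, inhibitor RNA gave 681 ± 21.8 CPM per kilobase in controls and 638 ± 49.0 in the libraries labelled VGD1. The 50 enzyme loci summed to 494 ± 35.5 and 481 ± 5.77 CPM per kilobase. In single libraries the ratio of inhibitor to enzyme RNA was 1.32, 1.31 and 1.52 in the controls and 1.22, 1.38 and 1.37 in the libraries labelled VGD1. The ratios overlap, with the lowest in replicate 1 labelled VGD1 and the highest in control replicate 3. No test is given for these sums because they hold the members. The inhibitor sum also includes invertase inhibitors such as C/VIF2, so the ratio does not measure inhibition of the enzymes.

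**Figure D4:**
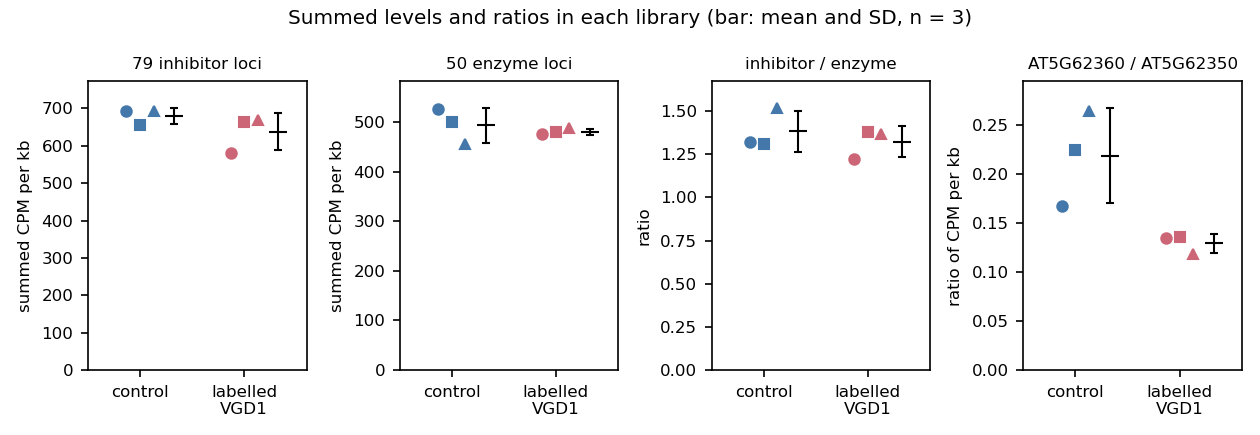
Summed CPM per kilobase of 79 inhibitor-family loci and of 50 enzyme loci, their ratio, and the ratio of AT5G62360 to AT5G62350, 1 point per library on axes from 0, with bars for mean and SD (n = 3). The groups overlap in the first 3 panels and separate in the last, where controls lie between 0.167 and 0.264.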

How the data were processed

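Each library came as 1 table of counts that the authors deposited, whole numbers by locus, and per the file headers the aligner was RNA STAR. TAIR10 and DESeq2 stand in the submitters' processing notes, with no role stated. Not given in the sources used here are the counting tool, strand setting and annotation. Without the strand setting reads of overlapping genes cannot be told apart. Groups came from the sample titles, and no library was left out.

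Members and lists were chosen with earlier results of these data known. Group differences were fitted with edgeR 4.0.16 in R 4.3.3: TMM factors, filterByExpr (minimum count 10, total 15), and robust glmQLFit followed by glmQLFTest, p-values being adjusted after Benjamini and Hochberg across the 19719 genes kept and called at 0.05. CPM carry the TMM factors. Intervals use a t distribution with 4 degrees of freedom and not those of the edgeR test. An interval can therefore span 0 where the unadjusted edgeR p is under 0.05. Genes named from lists are those called or with the smallest p, and for inhibitors and enzymes also the 5 highest per length.

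Names, lengths and sequences came from RefSeq TAIR10.1, which matched 32548 of 32833 loci. Its name differs from TAIR10 in the notes. The tables hold no positions, so coordinates and sequences are those of TAIR10.1 alone. Of 17 enzymes named by hand, 4 were not caught by annotation words and were added. AT1G62760, at 312 residues, counted as an enzyme by the length rule and was not tested. Alternatives were RLE factors, library totals, other filters, DESeq2 1.42.0, limma-voom (limma 3.58.1), the legacy dispersion, the replicate block, thinning, and leaving out each library. Tables, alignments and plots used Python 3.11.15, pandas 2.3.3, Biopython 1.88 and matplotlib 3.10.9.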

Additional observations from a re-analysis of the deposited data

How the results depend on the processing

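The count of 82 called genes rested on the setting: it was 139 with no filter on low counts, 430 with DESeq2, 53 in edgeR's legacy mode, 51 with thinned libraries, and from 4 (without control replicate 2) to 202 when 1 library was left out. With the replicate number as a block it was 194. Same-numbered libraries correlated in their deviations from the group means at 0.0134, 0.0446 and 0.116, and not every library correlated best with its own number, so the numbers were not taken as pairs. The block called AT5G62360 (adjusted p = 0.0171), which the unblocked fit also called, and no other member. Other inhibitor-family loci and homogalacturonan genes had 0 calls in every alternative. Pectin methylesterase loci had 1 call with DESeq2 and from 0 to 1 when a library was left out, in both cases AT1G02813. Of the neighbours in the order of levels, 5 were separated by range per kilobase of exon and 3 per kilobase of coding sequence. The cause of these changes was not tested. PMEI3, PMEI7, AT5G62360 and AT5G62350 moved by less than the spread between replicates in all 15 alternatives. PMEI1 and AT1G62770 could not be fitted under 2 alternatives that removed them. In the other 13 the log2 fold change ran from -0.34 to 0.03 for PMEI1 and from -2.89 to -1.42 for AT1G62770. At such low counts the spread between replicates depends on the log scale used, so these moves are not compared with it. Scaling by library totals moved the median gene by 0.04 on the log2 scale. Depth limits PMEI1, PMEI2, PMEI5, PMEI6 and AT1G62770, and control replicate 3 most.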

Other observations

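The genes whose levels ran most like AT5G62360 over the 6 libraries, by Pearson's r of log2(CPM + 1), were SAMBA (AT1G32310, r = 0.991), AT3G45050 (0.991), DFL2 (AT4G03400, 0.987), AT2G47390 (0.987) and HCA2 (AT5G62940, 0.985). DFL2, annotated in the auxin-responsive GH3 family, gave 52.1, 59.1 and 69.0 CPM in controls against 40.0, 46.4 and 43.2 CPM in the libraries labelled VGD1. HCA2, a Dof-type zinc finger gene, gave 12.8, 13.0 and 14.4 CPM against 10.6, 10.7 and 10.8 CPM. All 5 were highest in control replicate 3, as was AT5G62360. Of the other 19718 tested genes, 289 had an r of at least 0.9, a lower bar than the values of these 5. The 5 were picked as the highest r over 6 libraries, so their values are a description only. No member of the inhibitor family is among the 5.

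AT2G47050, the inhibitor-family locus beside VGD1 on chromosome 2, gave 5.94, 8.28 and 5.70 CPM in controls against 4.30, 4.37 and 5.28 CPM in the libraries labelled VGD1 (edgeR adjusted p = 0.297).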
